A study of Mus musculus with 35 samples.

Results

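Sostdc1 and 7 other genes of bone morphogenetic protein (BMP) signalling in the kidney, the ligands Bmp2, Bmp4 and Bmp7 and the secreted modulators Grem1, Bmper, Twsg1 and Chrdl1, were followed in newborn mouse kidneys. These 8 genes were picked by name out of 31053 genes counted in 35 libraries. Sostdc1 was picked because of its change in the Flcn and Flcn/Tfeb crosses, and results of the Flcn/Tfe3 cross were also known by then, so its values in all 3 crosses are a description, with no test.

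Each library was made from the kidney of a C57BL/6 mouse at postnatal day 2 by a method that reads the 3′ end of messenger RNA. Flcn KO mice (5 libraries, floxed Flcn on both alleles with Ksp-cre) lack folliculin, a brake on the transcription factors TFEB and TFE3, where the Ksp-cadherin (Cdh16) promoter drives Cre, chiefly in thick ascending limbs, distal tubules and collecting ducts. In Flcn/Tfeb DKO mice (4 libraries) Tfeb was floxed on both alleles as well and deleted in the same cells, whereas Flcn/Tfe3 DKO mice (10 libraries), which carried the floxed Flcn alleles, Ksp-cre and Tfe3-/-, lacked Tfe3 in every cell of the body. Each cross had its own controls, 5, 3 and 8 libraries. The paper names the control mice of its kidney sections as Flcn flox/flox. The Tfeb and Tfe3 alleles that the sequenced controls carried are not given in the sources used here. The 17 libraries without Tfe3 deletion or its controls form set A. The Flcn/Tfe3 libraries were deposited in 2 tables, here set B (6 DKO and 3 control libraries) and set C (4 and 5). The labels call the samples biological replicates. Cre reaches only part of the kidney, and in whole-kidney RNA fewer cells of a type and less RNA per cell cannot be told apart.

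BMPs are secreted ligands that bind paired serine/threonine kinase receptors and act through SMAD proteins to switch on targets such as the Id genes. Secreted antagonists bind the ligands and keep them from their receptors, and Sostdc1 (sclerostin domain containing 1, also called ectodin) both binds BMPs and interferes with Wnt co-receptors of the LRP family. In the kidney Sostdc1 is known as a distal tubule antagonist of Bmp7, a ligand needed for nephron formation.

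Between 1652649 and 4239356 reads per library fell on genes. By these totals a count of 3, taken as the limit that a count of 0 allows, is 0.708 to 1.82 CPM (the count scaled to a common library size). Other CPM values use totals multiplied by normalization (TMM) factors of 0.837 to 1.16, so these limits hold for them only roughly. Intervals and limits of this kind cover counting error only. Of the 26 libraries with a tally, 3 of set A had under 12% of reads on no gene (control Flcn 4 and 5 and control Flcn/Tfeb 3, at 10.96%, 9.06% and 9.07%), against 12.9% to 19.9% in the rest of set A. Markers of kidney segments were present in each group, the proximal tubule list summing to 2403 to 4224 CPM. Liver markers summed to 600 to 3453 CPM in Flcn/Tfeb DKO libraries and 420 to 1218 CPM in their controls, and skeletal muscle markers to 18.8 to 418 and 7.76 to 60.7 CPM. Liver markers in the Flcn/Tfe3 cross summed to 198 to 1631 CPM in DKO and 333 to 4547 CPM in control libraries, and the part of these tissues in the results below was not tested. Flcn itself averaged 15.1 ± 3.25 CPM in Flcn KO and 13.9 ± 2.26 CPM in control Flcn (SD, n = 5 each), and Tfe3 18.55 ± 3.80 CPM in Flcn/Tfe3 DKO (n = 10) and 19.2 ± 3.11 CPM in its controls (n = 8). Tfe3 was thus alike in both groups of its cross and higher in control Flcn (32.0 ± 5.19 CPM, n = 5) and control Flcn/Tfeb (36.5 ± 6.80 CPM, n = 3). Which exons the alleles remove is not given in the sources used here, and the libraries read 3′ ends, so whether these levels can check the labels is not known. Tfeb stood at 9.34, 7.005 and 19.54 CPM in control Flcn/Tfeb and averaged 7.47 ± 0.680 CPM in Flcn/Tfeb DKO (n = 4), a difference of -0.73 (adjusted p 0.798 in edgeR's quasi-likelihood test) that was -0.12 (adjusted p 0.979) without control 3.

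Sostdc1 was higher in Flcn KO kidneys, lower in Flcn/Tfeb DKO kidneys and higher again in Flcn/Tfe3 DKO kidneys, each against its own controls. The gene (ENSMUSG00000036169) lies on the plus strand of mm10 at chr12:36314139-36318452 and has 2 exons, and its counts ran from 408 to 2854 per library. In control Flcn kidneys it stood at 347, 375, 395, 325 and 339 CPM. In Flcn KO kidneys it stood at 587, 616, 584, 612 and 567 CPM. Every Flcn KO library was above every control of the cross, as was true of 1.69% of the 11932 genes tested. Control Flcn/Tfeb kidneys had 357, 312 and 391.5 CPM. The Flcn/Tfeb DKO libraries had 289, 264, 284 and 266 CPM. All 4 of these were below all 3 controls, which held for 2.74% of 12469 genes. Cdh16, whose promoter drives Cre, stood at 218, 205.9, 205.5 and 216.3 CPM in the same DKO libraries and at 282.5, 195.5 and 350.4 CPM in the controls, a difference of -0.40 (0.758-fold, adjusted p 0.798) that was -0.18 without control 3, and its part in the level of Sostdc1 was not tested.

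The 2 sets of the Flcn/Tfe3 cross differed in level, so they are given apart. The 3 controls of set B had 391, 391 and 499 CPM, and its 6 DKO libraries ran from 504 to 711 CPM around a mean of 598 ± 81.6 CPM. The 5 controls of set C had 312, 297, 298, 300 and 340 CPM, and its 4 DKO libraries 453, 450, 462 and 377 CPM. Within each set every DKO library was above every control, which held in both sets for 0.273% of the 12456 genes tested, although across sets the highest set B control (499 CPM) exceeded all 4 set C DKO libraries. With set as a term in edgeR's fit, the difference was 0.50 on the log2 scale (SE 0.09, 1.41-fold). The value was 0.49 in set B alone and 0.47 in set C alone, and leaving out single libraries gave 0.47 to 0.55. In set C the share of reads on no gene was 7.92% to 10.5% in DKO and 8.78% to 18.4% in control libraries, and its part in the difference was not tested. Control Flcn/Tfe3 6, whose share was 8.78%, had 298 CPM of Sostdc1.

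**Figure D1:**
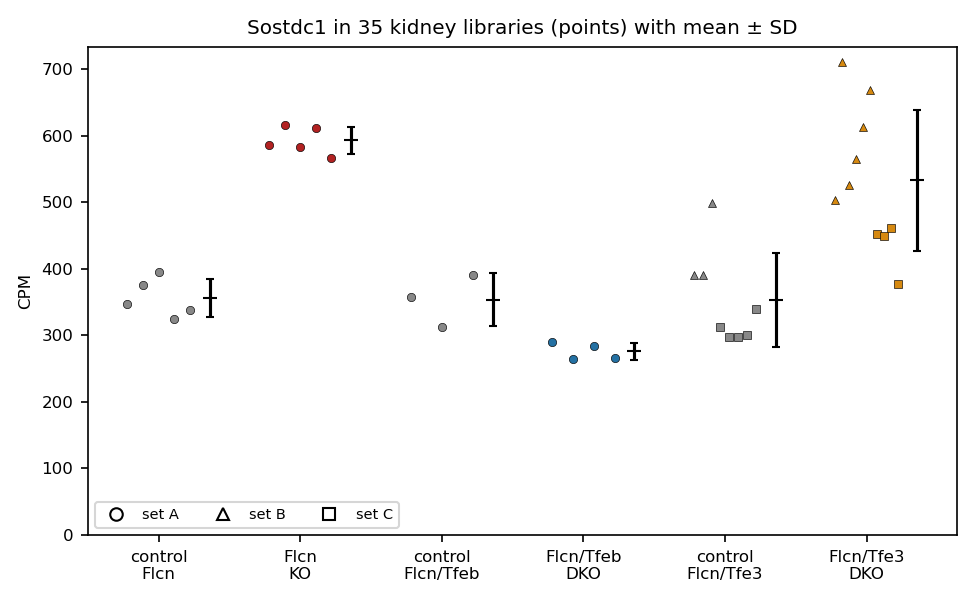
Sostdc1 in CPM (vertical axis, from 0) in each of the 35 libraries, by group, with symbols for the 3 sets and bars for the mean and SD of a group. The 5 Flcn KO libraries lie between 567 and 616 CPM above their controls (325 to 395 CPM), the 4 Flcn/Tfeb DKO libraries between 264 and 289 CPM below theirs, and set B lies higher than set C in both groups of the Flcn/Tfe3 cross.

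As log2 fold changes, Sostdc1 differed from its controls by 0.74 (SE 0.11, 1.67-fold) in Flcn KO and by -0.37 (SE 0.16, 0.774-fold) in Flcn/Tfeb DKO kidneys. With single libraries left out these were 0.70 to 0.78 and -0.45 to -0.28. The smallest fall, -0.28, came without control Flcn/Tfeb 3, one of the libraries with few reads on no gene. The change in the Flcn/Tfeb cross minus that in the Flcn cross was -1.11 (SE 0.17), and the change in the Flcn/Tfe3 cross minus that in the Flcn cross was -0.23 (SE 0.14). These contrasts share the values that chose the gene and are given without a test. Ordered by group mean, Sostdc1 was lowest in Flcn/Tfeb DKO (276 ± 12.7 CPM, SD, n = 4). The 3 control groups followed, at 354 ± 70.7 CPM (Flcn/Tfe3, n = 8), 354 ± 39.7 CPM (Flcn/Tfeb, n = 3) and 356 ± 28.5 CPM (Flcn, n = 5), closer to each other than their spreads. Flcn/Tfe3 DKO (533 ± 106 CPM, n = 10) and Flcn KO (593 ± 20.7 CPM, n = 5) were highest, and their libraries overlapped. This order rests on pooling the sets, since the Flcn/Tfe3 controls averaged 427 ± 62.2 CPM in set B (n = 3) and 309 ± 18.3 CPM in set C (n = 5), and the DKO libraries 598 ± 81.6 CPM (n = 6), above Flcn KO, and 435.5 ± 39.0 CPM (n = 4). Within groups and sets the coefficient of variation of Sostdc1 was 3.49% in Flcn KO to 14.6% in set B controls, above the 2.52% and 2.42% that counting alone gives there.

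Grem1 (gremlin 1) and Chrdl1 (chordin-like 1), antagonists that bind BMP2, BMP4 and related ligands, were close to the limit of detection. Grem1 (ENSMUSG00000074934, mm10 chr2:113746164-113758646, minus strand) had 0 to 11 counts per library and Chrdl1 (ENSMUSG00000031283, chrX:143285674-143394262, minus strand) 0 to 15. Each had 3 or fewer counts in 21 libraries, Grem1 was at 0 in 7 and Chrdl1 at 0 in 5, and neither passed the filter on low counts in a cross. Grem1 stood at 1.93, 2.58, 1.10, 1.88 and 1.47 CPM in Flcn KO kidneys and at 0.953, 0, 1.06, 0.495 and 1.47 CPM in their controls. Chrdl1 ran from 0.268 to 2.72 CPM in Flcn/Tfe3 DKO libraries (median 1.08) and from 0.380 to 4.17 CPM in their controls (median 1.19). The groups overlapped in each cross, and a change of these 2 genes was not detectable at this depth. Of the 8 genes, 6 passed the filter in all 3 crosses.

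Of the other 5 genes that passed, none was called (adjusted p under 0.05) in a cross by edgeR's quasi-likelihood test or by DESeq2, and over all genes tested the share called was 0.52% in the Flcn, 0% in the Flcn/Tfeb and 0.385% in the Flcn/Tfe3 cross. At an unadjusted p under 0.05 there was 1 of them, Bmp2 in the Flcn cross, where 9.07% of all genes passed that limit, and 0 in the Flcn/Tfeb and Flcn/Tfe3 crosses, where 5.07% and 7.15% did.

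Bmp2, a ligand that holds back branching of the ureteric bud, had its lowest mean in Flcn KO kidneys. The gene (ENSMUSG00000027358) lies at mm10 chr2:133552159-133562885 on the plus strand and gave 15 to 108 counts per library. Its level was 15.7, 15.9, 11.15, 26.7 and 24.4 CPM in control Flcn and 12.1, 10.9, 7.73, 9.41 and 15.8 CPM in Flcn KO kidneys. The groups overlapped, and 2 controls, replicates 4 and 5, stood above the rest. The difference was -0.77 on the log2 scale (SE 0.25, unadjusted p 0.00662, adjusted p 0.308 from edgeR). These 2 controls are among the libraries with few reads on no gene, and without them the difference was -0.34 (adjusted p 0.851). In the Flcn/Tfeb cross controls had 22.8, 12.8 and 23.9 CPM and DKO kidneys 11.1, 15.5, 11.04 and 15.3 CPM, a difference of -0.62 (SE 0.29, adjusted p 0.798). Controls of the Flcn/Tfe3 cross ran from 15.3 to 23.2 CPM (median 18.5) and DKO libraries from 14.3 to 24.4 CPM (median 19.0), a difference of 0.08 (SE 0.13, adjusted p 0.940). The change in the Flcn/Tfe3 cross minus that in the Flcn cross was 0.85 (SE 0.26), which did not pass the adjustment (adjusted p 0.661), as was true of all genes in this contrast (0% called).

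Bmp4, a ligand of the mesenchyme around the ureter and its branches, spread widely among libraries of the same group. It lies on the minus strand (ENSMUSG00000021835, mm10 chr14:46383520-46390669), and had 66 to 768 counts per library. Gm15217 and Gm15222 overlap it on the opposite strand, with 267 and 392 counts of their own over all 35 libraries, and reads in the overlap cannot be assigned if they were counted without strand. Flcn KO kidneys had 31.8, 132.6, 161.9, 132.9 and 136.7 CPM, and their controls 78.6, 92.3, 133.3, 110.1 and 131.5 CPM. Replicate 1 was far below the other Flcn KO libraries, and without it the difference went from 0.13 (SE 0.27, adjusted p 0.917) to 0.37 (adjusted p 0.509). Without Flcn KO replicate 3 the difference was -0.003. Flcn/Tfeb DKO kidneys had 112.4, 122.4, 87.9 and 75.5 CPM and their controls 50.8, 82.9 and 127.0 CPM, a difference of 0.17 (SE 0.29, adjusted p 0.881). Without control 3 this was 0.56 (adjusted p 0.932), and without control 1 it turned to -0.10. DKO libraries of the Flcn/Tfe3 cross ran from 79.0 to 154.5 CPM (median 111.1) and controls from 86.9 to 183.4 CPM (median 115.4), a difference of -0.20 (SE 0.14, adjusted p 0.822). This was -0.06 without control 1 and -0.29 without DKO 9. The groups overlapped in all 3 crosses.

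Bmp7, the ligand of nephron progenitors and tubules that Sostdc1 antagonises, had a slightly higher mean in each mutant group, with overlapping libraries. The gene (ENSMUSG00000008999, mm10 chr2:172868012-172940321, minus strand) gave 37 to 256 counts per library. It stood at 47.7, 60.6, 44.2, 49.5 and 54.9 CPM in Flcn KO kidneys and at 37.15, 50.9, 50.4, 53.0 and 48.7 CPM in their controls. Kidneys of Flcn/Tfeb DKO mice had 42.5, 42.1, 48.3 and 37.0 CPM and their controls 41.4, 37.4 and 34.5 CPM. Levels in the Flcn/Tfe3 cross ran from 30.4 to 54.6 CPM in DKO (median 43.7) and from 25.7 to 47.0 CPM in control libraries (median 36.7). The differences were 0.10 (SE 0.13), 0.16 (SE 0.18) and 0.18 (SE 0.12) on the log2 scale in the order of the crosses above, with adjusted p of 0.852, 0.831 and 0.821 from edgeR's test. Mutant and control libraries again overlapped throughout. Leaving out single libraries gave 0.02 to 0.15, 0.10 to 0.24 and 0.10 to 0.23. The lowest values came without control Flcn 1, Flcn/Tfeb DKO 3 and Flcn/Tfe3 DKO 10.

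Bmper, a secreted cysteine-rich protein that binds BMPs and can hinder or aid them, had lower means in all 3 mutant groups. It lies at mm10 chr9:23223076-23485200 on the plus strand (ENSMUSG00000031963), with 11 to 112 counts per library. Flcn KO kidneys had 5.30, 10.3, 6.62, 10.0 and 14.4 CPM and their controls 9.05, 9.09, 12.2, 19.6 and 13.5 CPM, a difference of -0.45 (SE 0.28, adjusted p 0.654). Without controls 4 and 5 the difference was -0.08 (adjusted p 0.979). Flcn/Tfeb DKO kidneys had 5.96, 9.71, 12.2 and 11.4 CPM and their controls 9.34, 14.6 and 10.4 CPM, a difference of -0.22 (SE 0.33, adjusted p 0.867) that was -0.02 without control 2 and -0.03 without DKO 1. In the Flcn/Tfe3 cross set B controls (22.4 ± 4.44 CPM, n = 3) and DKO libraries (17.3 ± 1.94 CPM, n = 6) were above those of set C (14.6 ± 2.55 CPM, n = 5, and 13.1 ± 3.95 CPM, n = 4), and the difference was -0.26 (SE 0.15, adjusted p 0.762).

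Twsg1 (twisted gastrulation), which binds BMPs together with chordin, was called in no cross. It lies at mm10 chr17:65921972-65951226 on the minus strand (ENSMUSG00000024098), with 44 to 325 counts per library. Flcn KO kidneys averaged 43.1 ± 6.23 CPM and their controls 43.6 ± 7.47 CPM (SD, n = 5 each), a difference of -0.03 (SE 0.14, adjusted p 0.963). Flcn/Tfeb DKO kidneys had 39.7, 28.5, 33.5 and 37.8 CPM and their controls 36.2, 33.9 and 83.6 CPM. The fitted difference of -0.59 (SE 0.31, adjusted p 0.798) came with the last of these controls, one of the libraries with few reads on no gene, and was 0.00 without it (-0.0021, adjusted p 1). Flcn/Tfe3 DKO libraries averaged 63.0 ± 8.90 CPM (n = 10) and controls 60.6 ± 9.63 CPM (n = 8), a difference of 0.08 (SE 0.11, adjusted p 0.920).

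**Figure D2:**
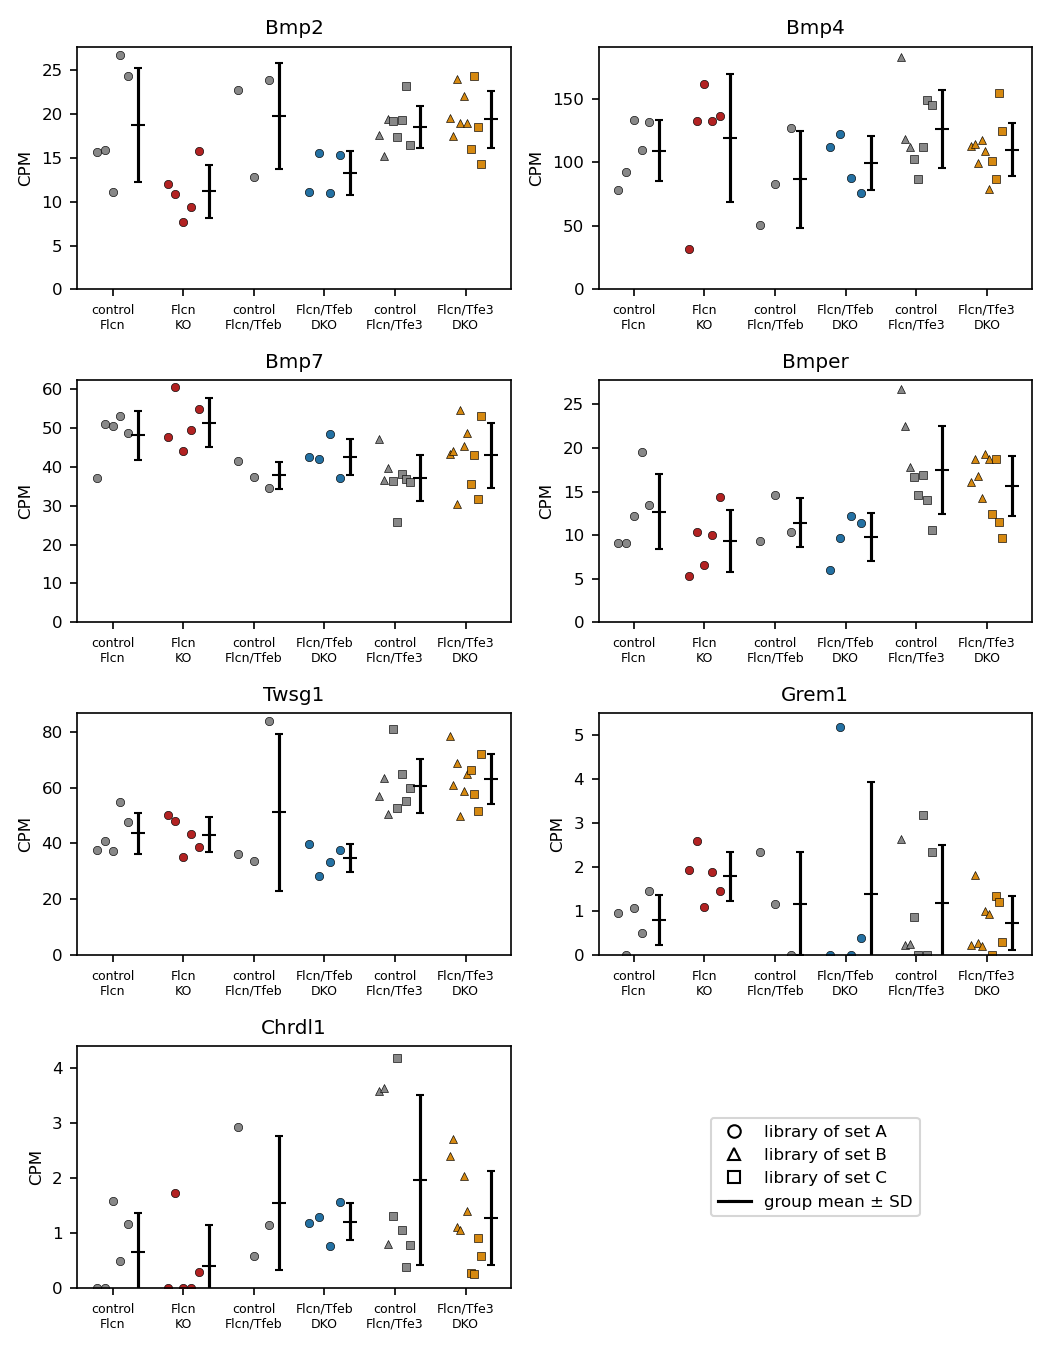
CPM (vertical axes, from 0, each panel on its own scale) of Bmp2, Bmp4, Bmp7, Bmper, Twsg1, Grem1 and Chrdl1 in each of the 35 libraries, by group, with symbols for the 3 sets and bars for the mean and SD of a group (cut at 0). Mutant and control libraries overlap in each panel and cross, Bmp4 has 1 Flcn KO library at 31.8 CPM, and Grem1 and Chrdl1 stay at or below 5.18 CPM.

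**Figure D3:**
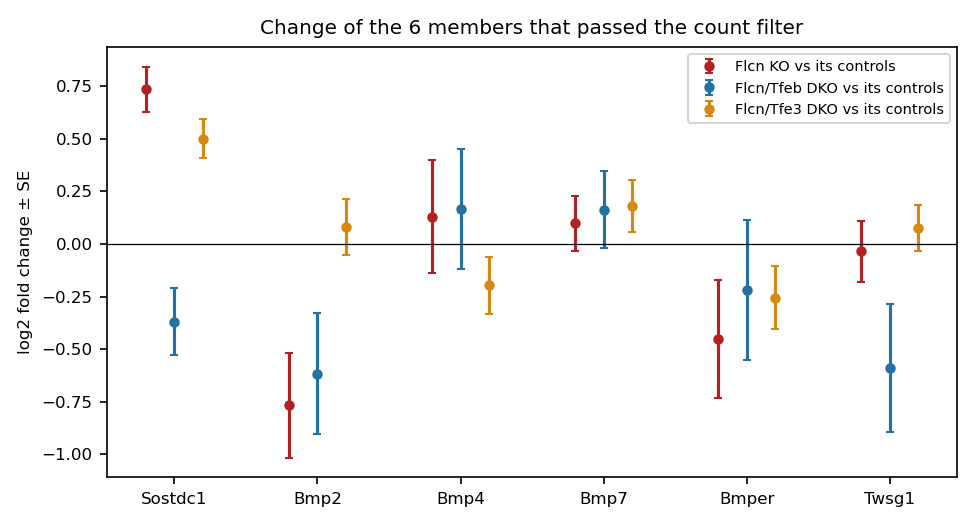
Log2 fold change against the controls of the same cross (vertical axis), with its standard error as bars, for the 6 genes that passed the filter. Sostdc1 lies at 0.74 in the Flcn, -0.37 in the Flcn/Tfeb and 0.50 in the Flcn/Tfe3 cross, and Bmp2 at -0.77, -0.62 and 0.08.

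Because the 8 genes work within a pathway, 7 lists of BMP, Wnt and ureteric bud genes were read for the same crosses, compiled by hand and holding 103 genes, 102 of them in the table. Sostdc1 apart, 67 were tested in the Flcn cross, of which 2 were called higher (Fstl3 and Gdf15) and 0 lower, beside 0.453% and 0.067% of all genes. In the Flcn/Tfeb cross 0 of 69 were called, with 6 at an unadjusted p under 0.05 (2 higher, 4 lower, beside 1.86% and 3.21% of all genes). Of 70 genes tested in the Flcn/Tfe3 cross 0 were called, with 4 at that limit (2 higher, 2 lower, beside 3.68% and 3.48%). The median difference of the lists was -0.07, -0.07 and 0.04 on the log2 scale, beside medians of -0.01, -0.02 and 0.01 over all genes tested.

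Fstl3 (follistatin-like 3), a secreted binder of activins and some BMPs, rose in Flcn KO kidneys. It stood at 78.1, 82.4, 79.9, 77.1 and 75.4 CPM in Flcn KO and at 45.3, 42.3, 37.2, 45.3 and 50.8 CPM in control Flcn kidneys. Every Flcn KO library was thus above every control, as for 1.69% of all genes tested in this cross. The difference was 0.82 (SE 0.11, 1.77-fold, adjusted p 0.000697 from edgeR). Flcn/Tfeb DKO kidneys had 48.0, 53.1, 55.6 and 54.3 CPM, above all 3 controls (37.4, 40.3 and 40.8 CPM) as were 2.9% of genes, a difference of 0.40 (SE 0.16) that did not pass the adjustment (adjusted p 0.798). Fstl3 in the Flcn/Tfe3 cross ran from 37.8 to 73.4 CPM in DKO (median 53.2) and from 22.3 to 61.8 CPM in control libraries (median 31.5), a difference of 0.50 (SE 0.15, adjusted p 0.249). The sets differed here, with means of 59.5 CPM in DKO and 53.1 CPM in control libraries of set B (0.17, adjusted p 0.829) and of 47.8 and 27.1 CPM in set C (0.81, adjusted p 0.017), and the difference between sets was not tested. Unlike Sostdc1, Fstl3 had its mean above the controls in Flcn/Tfeb DKO kidneys. Its change there minus that in the Flcn cross was -0.42 (SE 0.17, adjusted p 0.824), in a contrast that called 0.0153% of genes.

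Gdf15 (growth differentiation factor 15), a stress-induced and distant member of the ligand family, also rose in Flcn KO kidneys. It stood at 30.4, 24.7, 28.7, 35.1 and 30.5 CPM there and at 11.9, 16.8, 18.1, 6.19 and 11.5 CPM in the controls. The groups did not overlap, with every Flcn KO library above every control, as for 1.69% of all genes tested. The difference was 1.26 (SE 0.23, 2.39-fold, adjusted p 0.0119 from edgeR's test). Without control Flcn 4 it was 1.04, the lowest with 1 library left out, and the other alternatives gave 0.92 to 1.27. Gdf15 stayed called in the Flcn cross in all of these. Kidneys of Flcn/Tfeb DKO mice had 17.9, 18.1, 22.1 and 37.0 CPM and their controls 34.4, 20.4 and 9.77 CPM, a difference of 0.18 (SE 0.41, adjusted p 0.911) that was -0.20 without control 3 and 0.71 without control 1. Gdf15 in the Flcn/Tfe3 cross ran from 6.71 to 23.2 CPM in DKO and from 7.98 to 22.4 CPM in control libraries, a difference of -0.20 (SE 0.18, adjusted p 0.866). The change in the Flcn/Tfe3 cross minus that in the Flcn cross was -1.44 (SE 0.30), with an adjusted p of 0.295.

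The receptors, transducers and targets of BMPs showed no called change. Of the receptors and co-receptors 11 of the 12 in the table were tested in each cross, between -0.60 and 0.41 in the Flcn, -0.59 and 0.39 in the Flcn/Tfeb and -0.11 and 0.24 in the Flcn/Tfe3 cross. In the Flcn cross 3 of the 11 had an unadjusted p under 0.05, Acvr1 lower (-0.60, adjusted p 0.473 from edgeR) and Acvrl1 (0.40, adjusted p 0.483) and Bmpr1b (0.41, adjusted p 0.55) higher. The 10 transducers tested, among them Smad1 and Smad4, lay between -0.43 and 0.06, -0.28 and 0.62, and -0.24 and 0.17. Of 15 BMP target genes 9 were tested, and 0 had an unadjusted p under 0.05 in any cross, beside 9.07%, 5.07% and 7.15% of all genes. Id1, named here for its role as a direct target, differed by -0.09 (SE 0.17), -0.01 (SE 0.18) and -0.04 (SE 0.09) in the 3 crosses, and Id3 by -0.29 (SE 0.15), -0.24 (SE 0.25) and 0.03 (SE 0.15). The Wnt co-receptor Lrp6, at which Sostdc1 acts, differed by -0.22 (SE 0.11), 0.26 (SE 0.15) and 0.04 (SE 0.12), with adjusted p of 0.561, 0.798 and 0.966.

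Sostdc1 aside, no antagonist of the lists other than Fstl3 was called. Of the 23 besides Sostdc1, Fstl3 among them, 11 were tested, with median differences of 0.12 (Flcn cross), -0.09 (Flcn/Tfeb cross) and -0.02 (Flcn/Tfe3 cross). Pcolce, an enhancer of the proteinase that cleaves chordin and procollagen, had the smallest unadjusted p of the lists in the Flcn/Tfeb cross. It averaged 86.2 ± 6.53 CPM in DKO (n = 4) and 113.8 ± 17.2 CPM in control kidneys (n = 3), a difference of -0.41 (SE 0.17, adjusted p 0.798). In the Flcn/Tfe3 cross the Wnt feedback genes Nkd1 (-0.32, SE 0.11, adjusted p 0.416) and Rnf43 (-0.70, SE 0.24, adjusted p 0.419) followed Fstl3 in order of unadjusted p. Of the 12 Wnt genes tested there 7 lay above 0, with Sp5 at 0.92 (SE 0.38, adjusted p 0.563).

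Genes of the ureteric tip, which answer GDNF through the receptor Ret and co-receptor Gfra1, were not called either, and 7 of 9 lay below 0 in the Flcn and in the Flcn/Tfeb cross, beside 51.5% and 52.1% of all genes. Without the 3 libraries with few reads on no gene these counts were 6 and 4 of 9, and the median went from -0.37 to -0.05 in the Flcn and from -0.41 to 0.01 in the Flcn/Tfeb cross. Etv5, a transcription factor downstream of Ret, averaged 27.1 ± 3.39 CPM in Flcn KO and 39.7 ± 11.4 CPM in control Flcn kidneys (n = 5 each), a difference of -0.56 (SE 0.18, adjusted p 0.312) that was -0.25 (adjusted p 0.835) without controls 4 and 5. Gfra1 averaged 13.7 ± 4.09 CPM in Flcn/Tfeb DKO (n = 4) and 23.9 ± 12.1 CPM in control kidneys (n = 3), a difference of -0.84 (SE 0.35, adjusted p 0.798) that was -0.32 (adjusted p 0.956) without control 3. In the Flcn/Tfe3 cross 8 of the 9 lay above 0, between -0.21 and 0.12.

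**Figure D4:**
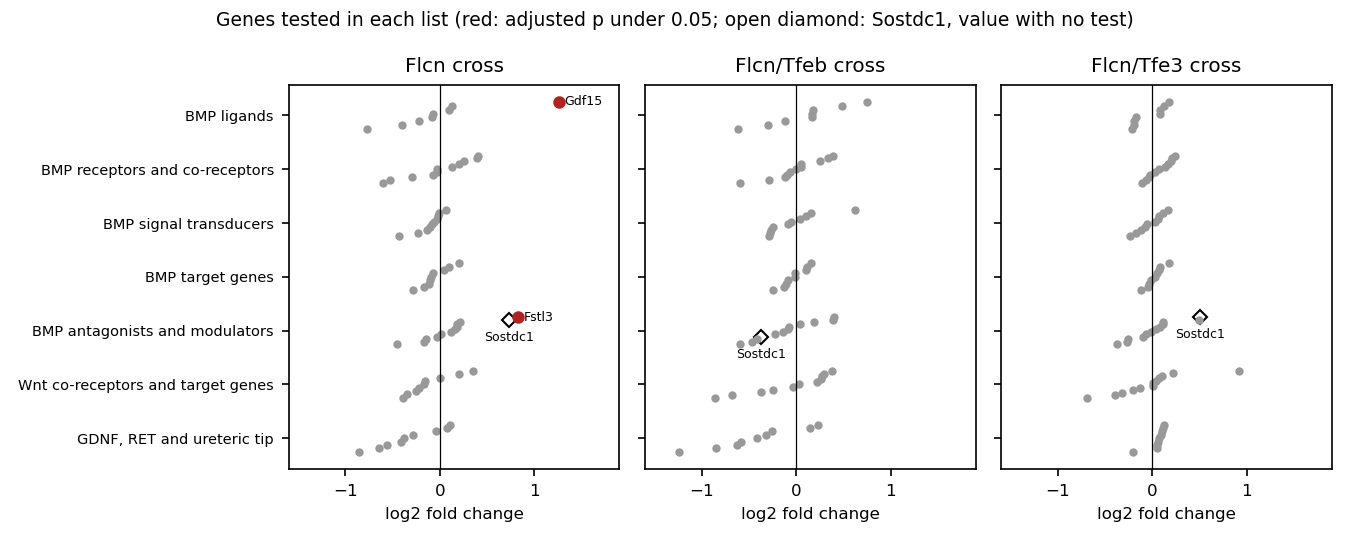
Log2 fold change (horizontal axes) of each gene tested in the 7 pathway lists, 1 panel per cross, with called genes in red and Sostdc1, given without a test, as an open diamond. Called genes were Fstl3 and Gdf15 in the Flcn cross, at 0.82 and 1.26, Sostdc1 lies at 0.74, -0.37 and 0.50, and the target genes stayed between -0.29 and 0.20.

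TFEB and TFE3 bind the E-box CACGTG, so the 250 bases before the transcription start were searched for it on both strands (it reads the same on each) in RefSeq promoter sequences of GRCm38.p6. Of the 8 genes 4 were matched in that table, Grem1, Bmper, Bmp4 and Twsg1, and Sostdc1, Bmp2, Bmp7 and Chrdl1 were not searched. The called genes Fstl3 and Gdf15 were added after their values were seen. The motif is present in 6.02% of the 32851 windows of this length and the longer TCACGTG, which overlaps it, in 3.13%. It was found in the window of Bmp4 and in 1 of the 2 windows of Gdf15, and these 2 stretches are shown because they hold it, with CACGTG in capitals.
Bmp4: tagtacctcttgCACGTGgtccccaggtga
Gdf15: cacagggcagggCACGTGtgagcatccagt
The stretch of Bmp4 lies at chr14:46390840-46390869 on the minus strand, its CACGTG ending 183 bases before the start, and that of Gdf15 at chr8:70632161-70632190 on the minus strand, its CACGTG ending 78 bases before one of the starts. The other Gdf15 window (chr8:70632457-70632706) lies further upstream, so the CACGTG of Gdf15 falls downstream of the other start. Bmp4 was called in no cross and Gdf15 only in the Flcn cross. These letters are not in the windows of Grem1, Bmper, Twsg1 and Fstl3, and a match describes the letters, not binding.

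The genes whose values followed Sostdc1 most closely across the 35 libraries were Umod and Slc16a7. Likeness was the correlation of log2 CPM after subtracting the average of its control libraries within cross and set, among 11733 genes, so it holds the changes between groups as well as the spread within them, and libraries share their depth and dissection. Umod, which encodes uromodulin of the thick ascending limb, had r = 0.92, and 0.63 within groups. The lactate and pyruvate transporter gene Slc16a7 had r = 0.91, and 0.38 within groups. Next came Ctsd, a lysosomal protease gene (0.87), Mfsd4a (0.87), Atp12a, a proton-potassium pump subunit (0.85), and Oxct1, an enzyme of ketone use (0.85). Tmem213 (0.85), Ptger3 (0.85), Cldn4 (0.84) and Car12 (0.84) completed the 10 most alike. Within groups r was 0.53 to 0.60 for Ctsd, Mfsd4a, Oxct1 and Tmem213, lower for Atp12a (0.23), Ptger3 (0.27) and Cldn4 (0.27), and -0.02 for Car12. Umod differed by 1.001, -0.24 and 0.71 on the log2 scale in these 3 crosses (Flcn first, Flcn/Tfe3 last), and Slc16a7 by 1.30, -0.42 and 1.20.

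**Figure D5:**
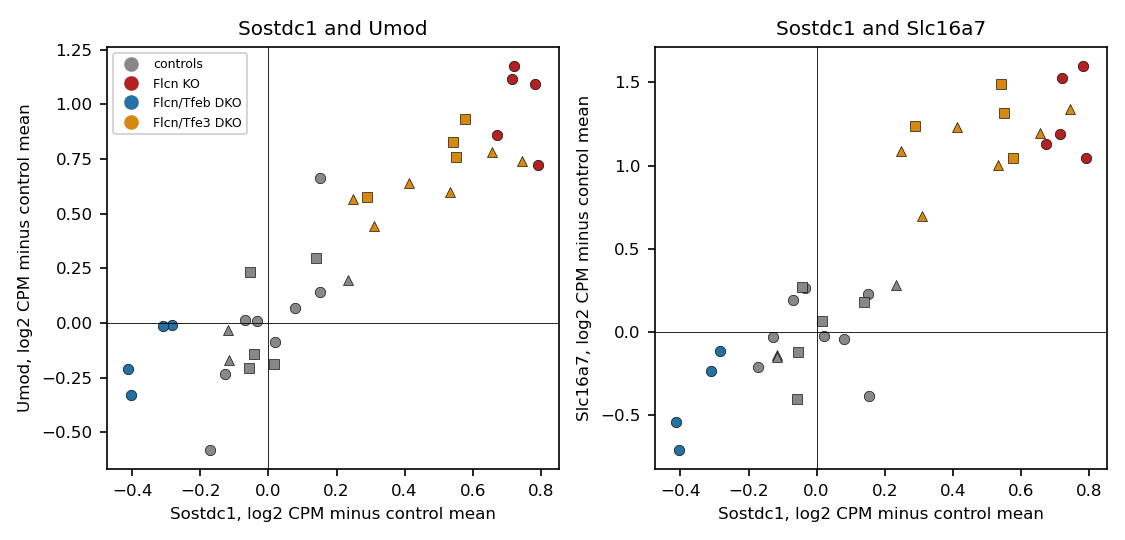
Log2 CPM minus the average of the matching control libraries (by cross and set), for Sostdc1 (horizontal axes) against Umod (left) and Slc16a7 (right), 1 point per library, coloured by group with symbols for the sets as circles (A), triangles (B) and squares (C). Flcn KO and Flcn/Tfe3 DKO libraries lie at the upper right (r = 0.92 and 0.91 over 35 libraries). Flcn/Tfeb DKO libraries lie at the left, from -0.33 to -0.0085 for Umod and from -0.71 to -0.12 for Slc16a7. Controls scatter around 0, with control Flcn/Tfeb 2 at -0.58 and control Flcn/Tfeb 3 at 0.66 for Umod.

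Markers of the segments that Cre reaches went in different directions. Of 7 thick ascending limb markers, Umod alone was called, higher in the Flcn and the Flcn/Tfe3 cross, where 0.453% and 0.345% of all genes were called higher. The 7 summed to 1418 to 1829 CPM in Flcn KO and 999 to 1498 CPM in control Flcn, to 1123 to 1257 and 1156 to 1282 CPM in Flcn/Tfeb DKO and control, and to 1042 to 1443 and 971 to 1179 CPM in Flcn/Tfe3 DKO and control kidneys. Of 7 intercalated cell markers, Atp6v1g3, Atp6v0d2 and Aqp6 were called higher in the Flcn cross and the last 2 in the Flcn/Tfe3 cross. Their sum was 439 to 579 CPM in Flcn KO and 186 to 258 CPM in control Flcn, 300 to 314 and 225 to 261 CPM in the Flcn/Tfeb, and 318 to 486 and 193 to 296 CPM in the Flcn/Tfe3 cross, DKO first. In the Flcn/Tfeb cross the 7 were mixed, with 5 above 0 and 0 at an unadjusted p under 0.05, Aqp6 at 0.61 and Foxi1, a transcription factor gene of these cells, at -1.01 (adjusted p 0.798 each from edgeR). None of the markers of either list was at 0 in a group. Of 7 distal convoluted tubule markers 0 were called, and their sum was 781.6 to 905.1 CPM in Flcn KO and 904.5 to 988.8 CPM in control Flcn kidneys, with Calb1, a calcium-binding protein gene, at -0.68 (adjusted p 0.115). The 8 principal cell markers were mixed. Above 0 lay 6 of them in the Flcn cross (median 0.19), where Scnn1b was called higher, and 4 in the Flcn/Tfe3 cross (median -0.03), while the water channel Aqp2 differed by -0.48 (adjusted p 0.202) and -0.40 (adjusted p 0.206). In the Flcn/Tfeb cross 4 of the 8 lay above 0 (median -0.04). There 2 were lower at an unadjusted p under 0.05 (3.21% of all genes), Aqp3 (-1.01) and Hsd11b2 (-0.84), with adjusted p 0.798 each from edgeR. Within groups Sostdc1 correlated at 0.64 with the mean of the thick ascending limb markers, 0.54 with the proximal tubule and 0.46 with the principal cell markers (35 libraries). The values were 0.39 for intercalated cell, 0.35 for distal convoluted tubule, -0.02 for liver and -0.53 for stroma markers. The part of cell makeup in the changes of Sostdc1 was not tested.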

How the data were processed

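Kidney RNA of 35 mice at postnatal day 2 was sequenced with the QuantSeq 3′ kit. The authors aligned the trimmed reads (bbduk in the methods, Trim Galore in the submitters' notes) on mm10 with STAR, tallied reads on genes by HTSeq-count and deposited these as raw counts, without normalization. A strand setting is not given in the sources used here. A deposited column with the percentage of reads at more than 1 place held 0 or no value and was not used.

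Tables were joined by Ensembl ID. Each cross was fitted in edgeR 4.0.16 (R 4.3.3) with filterByExpr, TMM factors and the two-sided quasi-likelihood F test, with set as a term for Flcn/Tfe3. Differences between crosses were interaction contrasts. P values were adjusted over all genes tested (Benjamini-Hochberg) and genes called below 0.05. CPM used TMM-scaled sizes of all 35 libraries, and log2 CPM a prior count of 2. The script was tested on simulated data.

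The members and lists were chosen with earlier results of these data known. Named were the 8 members, called genes of the pathway lists, the 3 others with the smallest p per cross, the 10 genes most like Sostdc1 (3 for other members) and Flcn, Tfeb, Tfe3 and Cdh16. Cdh16 was called in no cross (0.05, -0.40 and 0.00 on the log2 scale, adjusted p 0.925, 0.798 and 0.996). Lists of 13 cell types or tissues were markers.

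Alternatives were DESeq2 1.42.0, other filters and factors, the replicate number as a block, sets alone, all 35 libraries together and each library left out. Leaving out the 3 set A libraries under 12% of reads on no gene (not those of the Flcn/Tfe3 cross) was added after seeing the data.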

Additional observations from a re-analysis of the deposited data

Results flagged for a closer look

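Single libraries of the 8 genes that stood apart from the rest of a group were sought in 40 pairs of gene and group with 4 to 10 libraries, and 6 were found, where the 95% limit used gives about 1 in 20 by chance, a rate that need not hold for the Flcn/Tfe3 groups, which pool 2 sets of unlike level. Sostdc1 stood at 498.8 CPM in control Flcn/Tfe3 3, against 296.9 to 391.4 CPM in the other 7 controls. Bmp4 stood at 31.81 CPM in Flcn KO 1, against 132.6 to 161.9 CPM in the other 4. Bmp7 stood at 37.15 CPM in control Flcn 1, against 48.73 to 52.96 CPM. Twsg1 stood at 80.95 CPM in control Flcn/Tfe3 4, against 50.41 to 64.88 CPM. The 2 remaining genes are near the limit of detection, with Grem1 at 5.18 CPM in Flcn/Tfeb DKO 2 (the others at 0 to 0.393 CPM) and Chrdl1 at 1.722 CPM in Flcn KO 2 (the others at 0 to 0.293 CPM).

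Sostdc1 moved in opposite directions between crosses, every Flcn/Tfeb DKO library lying below the mean of its controls and every Flcn KO and Flcn/Tfe3 DKO library above. The difference of the changes was -1.11 on the log2 scale for Flcn/Tfeb minus Flcn and 0.855 for Flcn/Tfe3 minus Flcn/Tfeb. Neither is given with a test, since Sostdc1 was chosen on the change in the Flcn and Flcn/Tfeb crosses.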

How the results depend on the processing

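Over all alternatives 777 of 777 values of the other members stayed on their side of the threshold. So did 341 of 342 values of Tfeb, Cdh16, Fstl3, Gdf15, Etv5 and Gfra1 (the exception being Fstl3 in set C alone, 0.8139). Of 150 counts of genes called 123 stayed within 1.5 times. In the Flcn/Tfe3 cross Sostdc1 kept its direction, at 0.4927 in set B alone and 0.4681 with the replicate block. Sostdc1 is given without a threshold in every cross and contrast. It kept its sign in each, and its Flcn/Tfeb minus Flcn value was -0.9444 without the set A libraries under 12% of reads on no gene, -1.19 to -1.012 with single libraries left out and -1.104 to -0.9444 over the other alternatives. Its Flcn/Tfe3 minus Flcn/Tfeb value was 0.7823 to 0.9312 and 0.7994 to 0.8728. The counts of genes called were 62 (Flcn cross), 0 (Flcn/Tfeb cross) and 48 (Flcn/Tfe3 cross). DESeq2 gave 113 in the first and 96 in the last, no filter 95 in the first, 1 fit of all libraries 3 in the second. In the last, set B alone gave 8, set C alone 569 and the replicate block 2. For the differences between crosses (2 for Flcn/Tfeb minus Flcn, 0 for Flcn/Tfe3 minus Flcn, 3 for Flcn/Tfe3 minus Flcn/Tfeb) DESeq2 gave 8, 1 and 7. The replicate block gave 0 for the first and last, 1 fit of all libraries 5 for the first, and the first gave 1 without the libraries under 12%. Set C alone gave 459 for the second and 1 for the last, set B alone 0 for the last. Leaving out each library gave 37 to 58, 0 to 1 and 30 to 53 in the crosses (lowest without Flcn KO 3 and Flcn/Tfe3 DKO 7) and 0 to 3, 0 to 0 and 1 to 82 for the differences (82 without control Flcn/Tfeb 2). Same-numbered samples correlated at -0.347 to 0.315. Samples of unlike number were not compared, so whether the numbers pair samples is not settled, and the main fits did not use them as pairs. Depth limits Grem1 and Chrdl1 most.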

Other observations

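The other members followed different genes than Sostdc1 did, by the same measure over 35 libraries. Bmp4 was most like Spag7 (r = 0.80), Rap2a (0.80) and Pura (0.78), and these values were as high within groups (0.81, 0.83 and 0.78). Bmp2 was most like Tmpo (0.79), a nuclear envelope gene, and Osr2 (0.73), a transcription factor gene of the developing kidney, which differed by -0.78 (Flcn cross), -0.55 (Flcn/Tfeb cross) and 0.06 (Flcn/Tfe3 cross) on the log2 scale, beside -0.77, -0.62 and 0.08 for Bmp2. Twsg1 was most like Rbbp7 (0.88), C1qbp (0.85) and Surf4 (0.84), Bmp7 like Cab39 (0.71) and Bmper like Zrsr2 (0.61). Among the 6 members that passed the filter the highest correlations were those of Bmp2 with Twsg1 (0.40) and with Bmper (0.38).

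The marker lists gave further values. The Scnn1b call, the fall of Aqp2 and the correlations of Sostdc1 with markers are those already described above. Of 8 principal cell markers Scnn1b, a sodium channel subunit gene, was called higher in the Flcn cross (0.58 on the log2 scale, SE 0.13, adjusted p 0.0491 in edgeR's test), and the others were not called. In the Flcn/Tfe3 cross 3 had an unadjusted p under 0.05 on the lower side, Aqp2, Aqp4 (-0.35) and Avpr2 (-0.57), and 3 on the higher side, Scnn1g (0.42), Hsd11b2 (0.34) and Aqp3 (0.29). Within groups Sostdc1 correlated at 0.46 with the mean of these markers, at 0.39 with that of the intercalated cell markers, at 0.54 with that of the proximal tubule markers and at -0.53 with that of the stroma markers (35 libraries, which share depth and dissection). Adrenal cortex markers summed to 0.287 to 290 CPM over all libraries, with Cyp11b1 at 0 counts in both groups of the Flcn cross. None of the tested markers of the liver, adrenal cortex, myeloid, skeletal muscle, stroma, endothelium, nephron progenitor, podocyte and both other tubule lists (proximal and distal convoluted) was called by edgeR in a cross (0 higher, 0 lower). At an unadjusted p under 0.05, which 9.07% of all genes had in the Flcn cross, 3 of 7 podocyte, 3 of 8 stroma and 3 of 5 nephron progenitor markers were lower there, while 5 of 7 intercalated cell markers were higher. In the Flcn/Tfeb cross 3 of 4 muscle markers were higher (1.86% of all genes), and in the Flcn/Tfe3 cross 6 of 6 liver markers were lower (3.48%). These lists are named after their values were seen. Podocyte and nephron progenitor markers had median differences of -0.13 and -0.51 in the Flcn cross.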
